A study of Homo sapiens with 6 samples.

Results

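The 10 genes described here are ATF4 and genes of the stress response that ATF4 and CHOP run: ATF4, DDIT3 (which encodes CHOP), ATF3, ATF5, TRIB3, PPP1R15A, ASNS, CHAC1, SESN2 and VLDLR. They were taken as the lines of the deposited expression table that carry exactly these gene symbols. All 10 were found, each at 1 locus, among 22258 symbols, and all 10 were among the 15496 genes tested. The study asks what ALDH1B1, a mitochondrial aldehyde dehydrogenase, does in SW480 cells, an established human colon cancer line. Total RNA was sequenced from 3 samples with knockdown of ALDH1B1 (titled KD) and 3 control samples (titled SCR, genotype WT), each numbered 4, 5 and 6. No sample was treated otherwise. How the knockdown was made is not given in the sources used here, nor is whether a group comes from 1 clone. Nothing in the labels ties the replicates to separate cultures, and p-values then reflect the spread among these 6 samples, possibly a technical one.

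Cells under endoplasmic reticulum stress, amino acid shortage, mitochondrial damage or heme shortage phosphorylate the translation factor eIF2, which slows most protein synthesis while ATF4 mRNA is translated more. ATF4 is a bZIP transcription factor that pairs with C/EBP proteins and raises genes for amino acid supply and, through CHOP and TRIB3, genes tied to cell death and to its own restraint. PPP1R15A (GADD34) brings a phosphatase back to eIF2 and closes the loop. Because much of this control acts on translation, the mRNA level of ATF4 is not a measure of ATF4 protein, which was not measured here.

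The promoters of the members were searched for the letters of the ATF4 and C/EBP composite element, TGATGNAA (TTNCATCA on the other strand), and of the cAMP response element, TGACGTCA, which reads the same on both strands. The windows run from 250 bases before to 50 bases after each start in RefSeq (GRCh38.p14), and all 10 members had one. The composite element was found in ATF3, ASNS and CHAC1, 3 of 10 members, against 4.46% of 27305 genes (3.62% of 35116 promoters). The cAMP response element was found in PPP1R15A, 1 of 10 members, against 2.25% of genes. ATF3, ASNS and CHAC1 match the same pattern but differ at its free base N. ATF3 rose, while ASNS and CHAC1 did not pass the test described below, and whether their changes differ was not tested. The stretches of these genes and of PPP1R15A are shown here. Each is 30 bases, 5′ to 3′ on the gene's strand, with the match in capitals.
ATF3: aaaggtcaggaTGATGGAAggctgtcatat
ASNS: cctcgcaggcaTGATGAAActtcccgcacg
CHAC1: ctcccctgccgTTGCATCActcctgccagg
PPP1R15A: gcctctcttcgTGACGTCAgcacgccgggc

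The ATF3 stretch lies at chr1:212565205-212565234 on the plus strand, with its match 191 bases before the start. The ASNS stretch lies at chr7:97872458-97872487 on the minus strand, with its match 68 bases before the start, and all 30 bases are also exonic in some GENCODE 29 transcript. The CHAC1 stretch lies at chr15:40953251-40953280 on the plus strand, with its match 209 bases before the start, and its 30 bases are likewise exonic in some transcript. The PPP1R15A stretch lies at chr19:48872352-48872381 on the plus strand, with its match 58 bases before the start. A match describes letters only, and a window without one says nothing about the factor.

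The samples had the following depth and makeup. A depth of 20320000 to 28530000 reads per sample, read from the step between low values, stood behind the depth-scaled levels in RPM given below, and the members rested on 101 to 8461 reads per sample. ALDH1B1, the targeted gene, was at 36.8 ± 2.76 RPM in the control samples and 21.2 ± 1.74 RPM in the knockdown samples (SD, n = 3 each), with no overlap; an exact two-sided permutation test gave p = 0.1, the smallest this design allows. The log2 fold change was -0.80 (limma adjusted p = 2.37e-07). Of the colon epithelial line markers, 7 of 8 matched lay above 3 reads in every sample, and their summed level was 5432 to 5689 RPM in control and 5830 to 6142 RPM in knockdown samples. This sum was carried by keratins that did not pass the test: of 7 markers tested, CDH1 (396% of control), VIL1 (373%) and EPCAM (187%) rose and CDX2 (59%) fell, by limma. Summed fibroblast markers (2 of 7 matched) were at 4.08 to 5.70 RPM in control and 5.27 to 6.92 RPM in knockdown samples. Summed leukocyte markers (4 of 6 matched) were at 1.36 to 1.99 and 1.71 to 2.41 RPM, and endothelial and blood markers (3 of 5 matched) at 2.04 to 2.57 and 1.20 to 5.21 RPM. Mitochondrially encoded mRNAs held 3.60% to 4.31% of the depth in control and 6.34% to 6.43% in knockdown samples, and their part in the results below was not tested.

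Of the 10 members, DDIT3, ATF3 and PPP1R15A rose, VLDLR, TRIB3 and ATF5 fell, and ATF4, ASNS, CHAC1 and SESN2 did not pass the test. A gene rose or fell where limma, fitted on all 15496 genes, gave a Benjamini-Hochberg adjusted p under 0.05. The 6 members called stand beside 41.8% of all genes tested, 22.6% that rose and 19.2% that fell, so a call by itself was common in this comparison. The 2 groups did not overlap for 7 members, beside 51.0% of all genes. The median log2 fold change of the members was -0.01 against 0.00 for all genes, while the median size regardless of sign was 0.43 against 0.24. Because the members were chosen with earlier results of these data known, these comparisons with all genes are descriptions only.

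**Figure D1:**
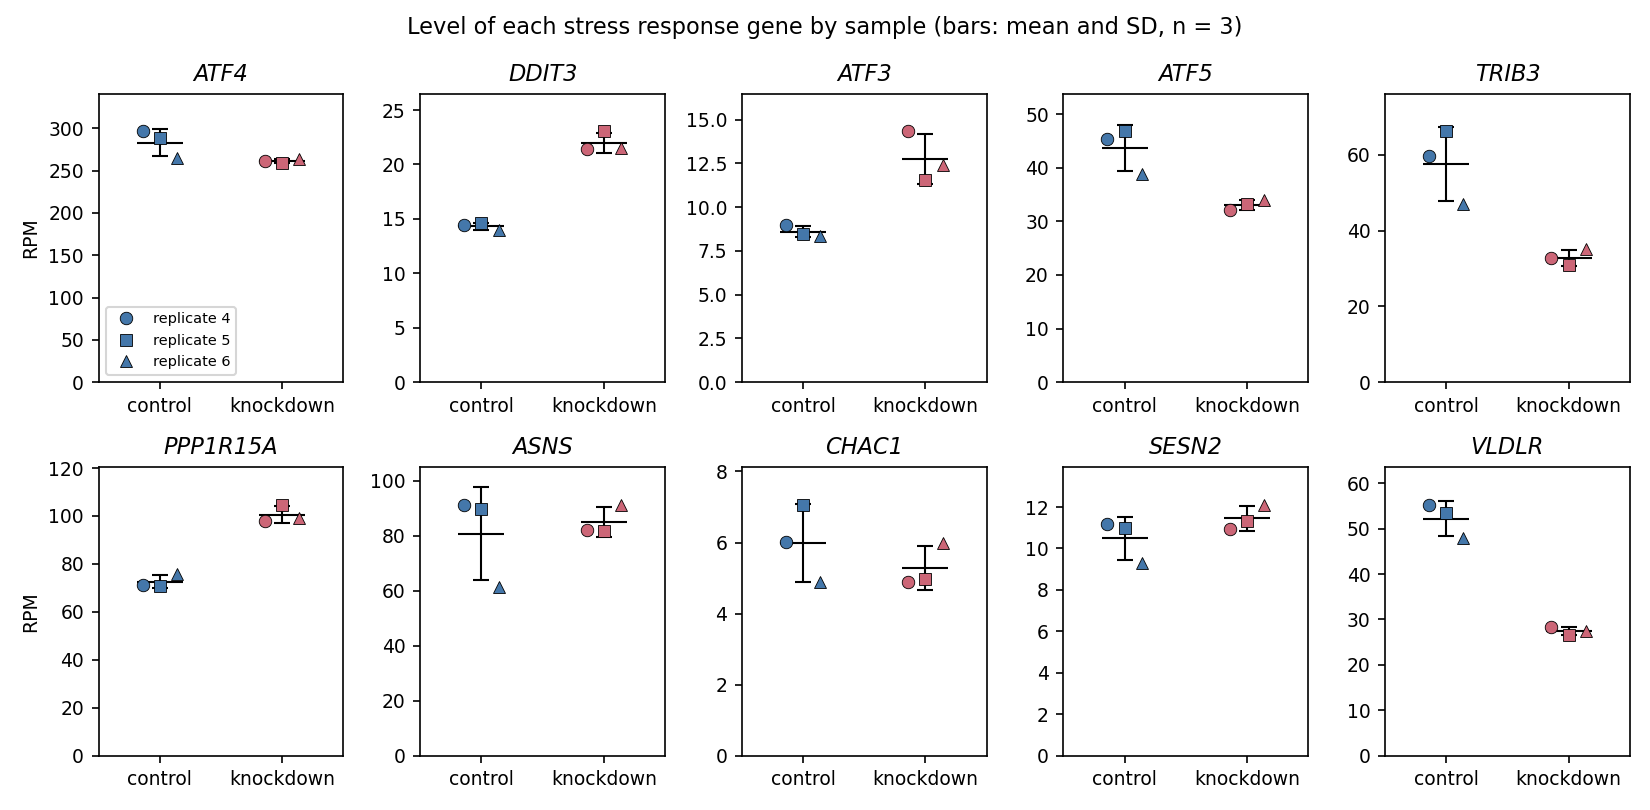
Level of each member in RPM (linear axis from 0) in the 3 control and 3 knockdown samples, with marker shapes for replicates 4, 5 and 6 and bars for the mean and SD. Knockdown points lie above all control points for DDIT3, ATF3 and PPP1R15A, and below them for VLDLR, TRIB3, ATF5 and, by a small margin, ATF4.

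The factor that gives the response its name had the highest level of the 10 and moved little. ATF4 stood at 297, 288 and 265 RPM in control replicates 4, 5 and 6 and at 261, 259 and 264 RPM in knockdown replicates 4, 5 and 6. The knockdown samples sat just below the lowest control sample, and the margin between the 2 groups was smaller than the spread within the control group. The means were 283 ± 16.4 and 261 ± 2.73 RPM (SD, n = 3), a log2 fold change of -0.11 with a 95% confidence interval of -0.26 to 0.04 (limma adjusted p = 0.216). Rescaling by the median of ratios, which hardly changed the size (-0.14), put ATF4 past the threshold (limma adjusted p = 0.0253).

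CHOP mRNA was higher in every knockdown sample. DDIT3 was at 14.4, 14.6 and 14.0 RPM in the control samples and at 21.4, 23.1 and 21.5 RPM in the knockdown samples, in replicate order. The 3 control values lay within 1 RPM of each other and the gap to the knockdown values was many times that spread. Its mean rose from 14.3 ± 0.315 to 22 ± 0.927 RPM, with a log2 fold change of 0.62 ± 0.0954 (SE; limma adjusted p = 1.34e-05). DDIT3 shares 983 bases of the table's map with MARS, a methionyl-tRNA synthetase gene on the opposite strand, which was at 156 and 140 RPM (log2 fold change -0.15, limma adjusted p = 0.106, but 0.0099 under the median of ratios and 0.0355 without control replicate 6). The library keeps strand, but whether the counting used it is not given in the sources used here, so reads of the shared bases cannot be told apart.

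ATF3, a bZIP repressor induced by many stresses, was the other factor that rose. It was at 8.96, 8.44 and 8.37 RPM in control and at 14.3, 11.5 and 12.4 RPM in knockdown samples. All knockdown samples were above all control samples, and the knockdown samples were spread more widely than the control samples. The mean rose from 8.59 ± 0.320 to 12.8 ± 1.44 RPM, with a log2 fold change of 0.57 ± 0.116 (SE; limma adjusted p = 0.00035).

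ATF5, an ATF4 relative whose translation is also raised by eIF2 phosphorylation, moved the other way. Its control samples were at 45.3, 46.8 and 38.8 RPM and its knockdown samples at 32.0, 33.3 and 34.0 RPM. Control replicate 6 was the nearest to the knockdown samples but stayed above them. The mean fell from 43.6 ± 4.29 to 33.1 ± 0.969 RPM, with a log2 fold change of -0.39 ± 0.0877 (SE; limma adjusted p = 0.000796). ATF5 overlaps NUP62 by 1063 bases and IL4I1 by 839 bases on the opposite strand. NUP62, a nucleoporin gene, was at 126 RPM in control and 113 RPM in knockdown samples, and IL4I1 was at 1.49 and 1.28 RPM. Neither passed the test, with log2 fold changes of -0.15 and -0.22 (limma adjusted p = 0.105 and 0.517).

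The feedback genes TRIB3 and PPP1R15A went in opposite directions. TRIB3, a pseudokinase that ATF4 and CHOP induce and that binds and restrains them, was at 59.7, 66.3 and 47.0 RPM in control samples and at 32.7, 30.9 and 35.1 RPM in knockdown samples. The control group was the more spread of the 2, and its lowest sample, replicate 6, was still well above the highest knockdown sample. The mean went from 57.7 ± 9.77 to 32.9 ± 2.13 RPM, or 57.5% of control, a log2 fold change of -0.80 ± 0.100 (SE; limma adjusted p = 7.49e-07), which ranked 305 among falls in size. PPP1R15A was at 71.3, 70.7 and 75.8 RPM in control samples and at 97.8, 105 and 99.3 RPM in knockdown samples. Both groups were tight and far apart. Its mean rose from 72.6 ± 2.80 to 101 ± 3.64 RPM, with a log2 fold change of 0.47 ± 0.0749 (SE; limma adjusted p = 1.95e-05).

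VLDLR, a lipoprotein receptor gene that ATF4 raises under endoplasmic reticulum stress, had the largest change of the 10. The control samples were at 55.3, 53.4 and 47.9 RPM and the knockdown samples at 28.3, 26.5 and 27.4 RPM. The groups stood far apart, with the knockdown mean at 52.6% of the control mean. VLDLR fell from 52.2 ± 3.85 to 27.4 ± 0.914 RPM, with a log2 fold change of -0.93 ± 0.0850 (SE; limma adjusted p = 4.62e-09), rank 226 among falls in size. It overlaps the non-coding locus RP11-125B21.2 on the opposite strand by 19563 bases. That locus was at 1.45 and 0.911 RPM (log2 fold change -0.67, limma adjusted p = 0.0772), a small level beside that of VLDLR.

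ASNS, CHAC1 and SESN2 did not separate the groups. ASNS, asparagine synthetase and a standard readout of amino acid shortage, was at 91.3, 89.6 and 61.4 RPM in control and at 82.2, 81.8 and 91.3 RPM in knockdown samples. Control replicate 6 lay apart below the other 5 samples, which spanned 81.8 to 91.3 RPM. The log2 fold change was 0.10 with a 95% confidence interval of -0.12 to 0.31 (limma adjusted p = 0.49), and without control replicate 6 it changed sign to -0.09 (limma adjusted p = 0.321). A change of ASNS as large as that of DDIT3 or TRIB3 lies outside this interval.

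CHAC1, which breaks down glutathione and is induced by ATF4, was the least covered member, with 101 reads in its thinnest sample. It was at 6.02, 7.07 and 4.89 RPM in control and at 4.89, 4.96 and 6.0 RPM in knockdown samples. The groups overlapped over most of their range. Its log2 fold change was -0.17 with a 95% confidence interval of -0.49 to 0.14 (limma adjusted p = 0.388). Under quantile normalization CHAC1 passed the test at -0.36 (limma adjusted p = 0.0407).

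SESN2, a leucine-binding inhibitor of the mTORC1 pathway, was at 11.2, 11 and 9.30 RPM in control and at 10.9, 11.3 and 12.1 RPM in knockdown samples. Its groups overlapped as well, apart from a low control replicate 6 and a high knockdown replicate 6. The log2 fold change was 0.13 with a 95% confidence interval of -0.10 to 0.36 (limma adjusted p = 0.377). The 3 intervals bound the changes of these genes and do not show that they stayed the same.

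**Figure D2:**
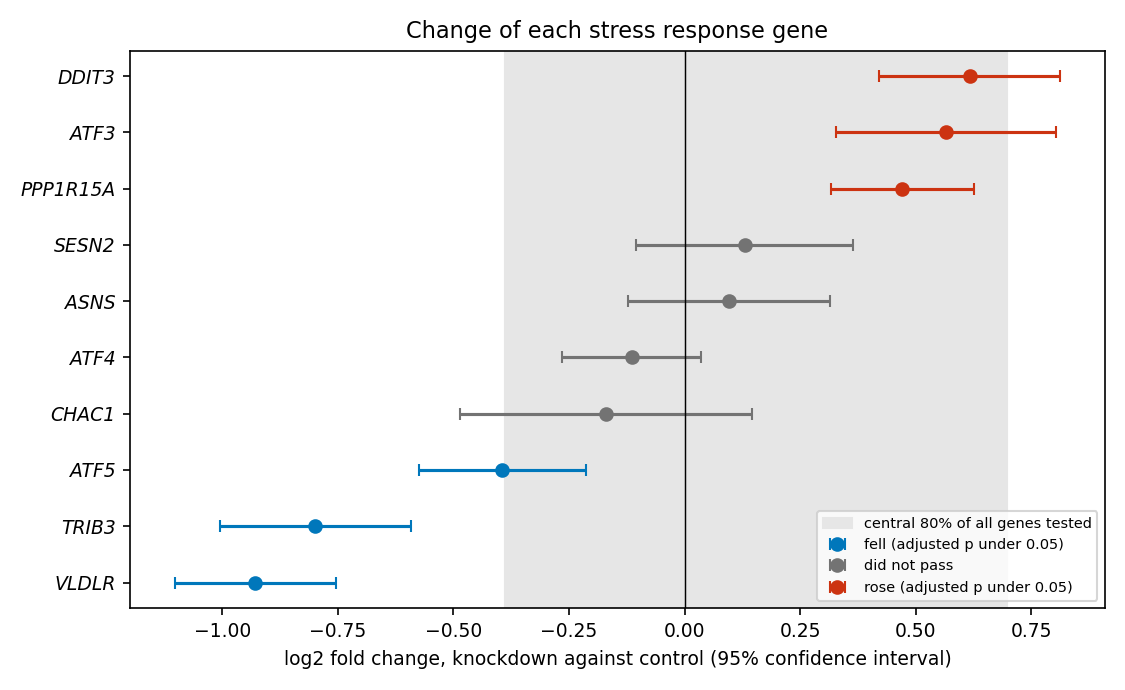
Log2 fold change of each member, knockdown against control, with its 95% confidence interval from limma (n = 3 each), in red where it rose, blue where it fell and grey where it did not pass; the grey band holds the central 80% of all genes tested. DDIT3 (0.62) lies at the upper end and VLDLR (-0.93) at the lower end.

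Compared per kilobase of transcript (lengths from GENCODE 29, longest coding transcript), ATF4 had the highest level by far in both groups, at 140 ± 8.13 RPM per kilobase in control and 129 ± 1.35 in knockdown samples. In control samples ASNS (34.3 ± 7.14) and PPP1R15A (30.5 ± 1.18) came next and did not differ beyond their SD. TRIB3 (23.1 ± 3.91) and ATF5 (21.1 ± 2.08) followed and did not differ beyond their SD either, and DDIT3 (13.4 ± 0.295) stood below them. VLDLR (5.70 ± 0.420), ATF3 (4.22 ± 0.157), CHAC1 (3.24 ± 0.590) and SESN2 (3.04 ± 0.301) were the lowest, the last pair within their SD of each other. In knockdown samples the order of levels per kilobase changed. PPP1R15A (42.3 ± 1.53) stood above ASNS (36.1 ± 2.27), and DDIT3 (20.6 ± 0.868) stood above ATF5 (16.0 ± 0.469) and TRIB3 (13.2 ± 0.850). SESN2 (3.32 ± 0.175), VLDLR (2.99 ± 0.0998) and CHAC1 (2.86 ± 0.336) were the lowest, and CHAC1 overlapped both others within their SD. ATF3 (6.27 ± 0.706), below VLDLR in control samples, stood above it here.

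Differences between 2 members within a sample do not depend on how samples were scaled to each other. The pairs in this paragraph set a member that rose against one that fell. Their shifts therefore restate the fold changes above and are not separate evidence. On the log2 RPM scale, DDIT3 minus TRIB3 was -2.05, -2.18 and -1.75 in control replicates 4, 5 and 6 and -0.61, -0.42 and -0.71 in the knockdown replicates. The difference shifted upward by 1.41 on average in the knockdown group, with SDs of 0.22 and 0.15 and no overlap. Transcript length cancels in this shift but not in the differences themselves, so they do not order the 2 genes by level. ATF3 minus ATF5 shifted upward by 0.96, from a mean of -2.34 to -1.38 (SD 0.13 and 0.19), again without overlap.

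Set against ATF4 in the same sample, the mean shift of a member is its log2 fold change less that of ATF4 (-0.11). The 6 called members all changed by more than ATF4 did, so their shifts had to keep the directions of the test. DDIT3 minus ATF4 shifted by 0.73 (control mean -4.30, knockdown mean -3.57), PPP1R15A minus ATF4 by 0.58 (-1.96 and -1.38), and ATF3 minus ATF4 by 0.68 (-5.04 and -4.36). TRIB3 minus ATF4 shifted by -0.68 (-2.31 and -2.99), VLDLR minus ATF4 by -0.81 (-2.44 and -3.25), and ATF5 minus ATF4 by -0.28 (-2.70 and -2.98). ASNS minus ATF4 was -1.70, -1.68 and -2.11 in the control replicates and -1.67, -1.66 and -1.53 in the knockdown replicates. Its mean shift of 0.21 was smaller than the control SD of 0.24, which came mostly from replicate 6.

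**Figure D3:**
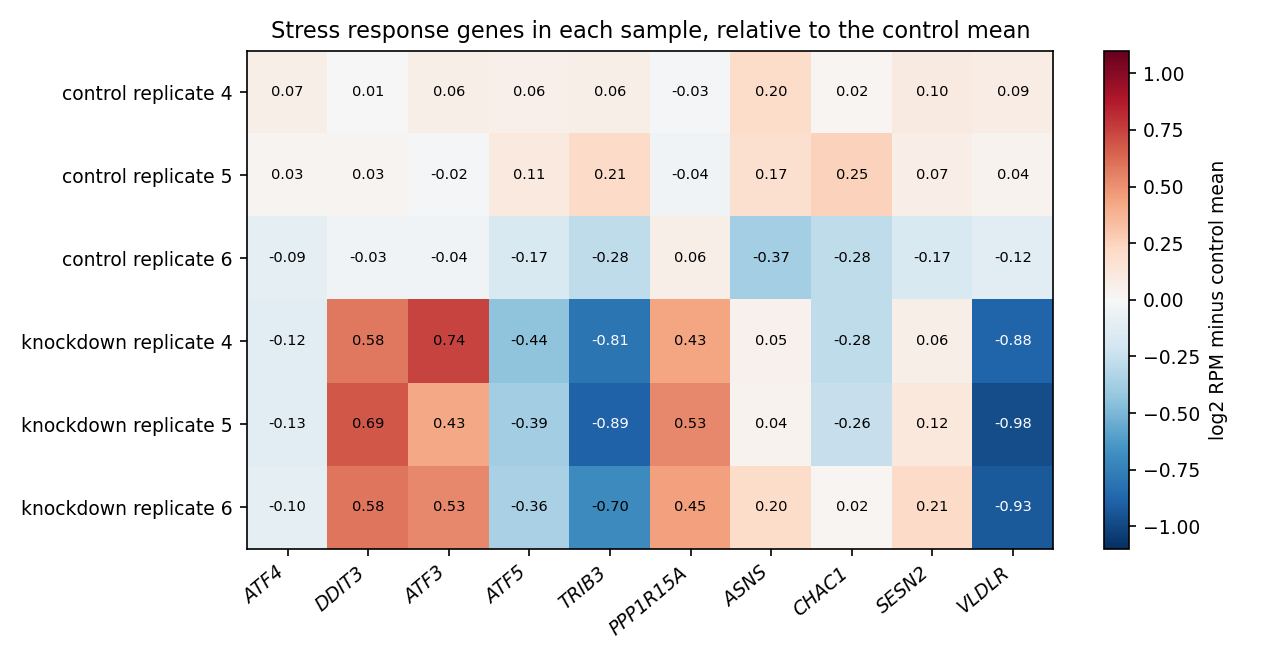
Log2 RPM of each member in each sample minus the mean of the 3 control samples, as a colour map with the value printed in each cell (red above, blue below). TRIB3 and VLDLR are blue and DDIT3, ATF3 and PPP1R15A red across all knockdown rows, and the control replicate 6 row is blue for all members but PPP1R15A.

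Control replicate 6 read low for most members. It was the lowest control sample for 9 of 10 members, all but PPP1R15A, beside 69% of all genes tested, and it had the smallest share of its depth in listed genes (65.1%, against 67.2% to 71.1% in the other samples). Relative to the mean of control replicates 4 and 5 on the log2 scale, ASNS lay at -0.56, TRIB3 and CHAC1 each at -0.42, SESN2 and ATF5 each at -0.25, VLDLR at -0.18 and ATF4 at -0.14. ATF3 and DDIT3 lay at -0.06 and -0.05, and PPP1R15A at 0.09. The median over the members was -0.22, against -0.14 over all genes. Without this sample the falls were larger, at -0.94 for TRIB3, -0.99 for VLDLR and -0.48 for ATF5, and the rises were 0.60 for DDIT3, 0.55 for ATF3 and 0.50 for PPP1R15A.

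Companion lists place the members among the genes they work with. The 10 lists held 198 tested genes, of which 43 rose and 59 fell (51.5%, beside 41.8% of all genes), with a median log2 fold change of -0.06. These lists were chosen with results of these data known, and the counts below are descriptions beside those of all genes. Some of the rises lie in 3 stretches of chromosomes 2, 3 and 7 in which neighbouring genes were raised together. These stretches, found on these data, held 1138 tested genes, of which 66.1% rose and 2.99% fell (median 0.43), against 18.7% and 20.9% of genes placed elsewhere. These counts use genes placed at 1 locus. No member lies in the stretches, but 21 companion genes do (1 of them placed at several loci), and 19 of these rose and 0 fell. Membership is given below wherever such a gene is named, and its part in a gene's rise was not tested.

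Upstream of ATF4, the genes of eIF2, its kinases and phosphatases, its exchange factor and related factors moved in both directions. Of these 23 genes, 7 rose and 6 fell (median -0.06), so 56.5% were called, beside 41.8% of all genes tested. Most of the rises were in the kinases and their regulators. Most of the falls were in subunits of eIF2 and eIF2B or in EIF2A. Genes of the phosphatases were called in both directions, and eIF2 phosphorylation was not measured. Of the 7 risen genes, 4 lie in the raised stretches. Of the 4 eIF2 kinases, EIF2AK3 (PERK), which senses misfolded protein in the endoplasmic reticulum, rose from 14.5 ± 1.11 to 23.1 ± 2.03 RPM, with a log2 fold change of 0.68 (limma adjusted p = 8.53e-06). EIF2AK2 (PKR, activated by double-stranded RNA) rose by a log2 fold change of 0.26 and EIF2AK1 (HRI, the kinase for heme shortage and mitochondrial stress) by 0.25 (limma adjusted p = 0.00742 and 0.0128). EIF2AK4 (GCN2, which senses uncharged tRNA) was at -0.15 (limma adjusted p = 0.149, and 0.0273 under the median of ratios). EIF2AK3 and EIF2AK2 lie in the raised stretch of chromosome 2, and 40.8% of the neighbours of EIF2AK1 within 5 Mb rose. Without a variance trend in limma, EIF2AK1 and EIF2AK2 missed the threshold (adjusted p = 0.0844 and 0.0525), as did EIF2AK1 without knockdown replicate 6 (limma adjusted p = 0.0581) and with the replicate number as a block (0.0514). The number of genes of this list that fell was 10 under the median of ratios and 3 without control replicate 5 or with the block, and the number that rose was 3 without the variance trend.

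Of the 3 subunits of eIF2, the factor that these kinases modify, 1 fell. EIF2S1, the alpha subunit of eIF2 and the one that is phosphorylated, fell from 128 ± 1.77 to 84.9 ± 2.20 RPM, with a log2 fold change of -0.59 (limma adjusted p = 5.5e-07). EIF2S2 and EIF2S3 did not pass, at -0.19 and 0.13 (limma adjusted p = 0.0524 and 0.162). EIF2S2 crossed the threshold with an offset of 0.5 RPM or a stricter filter (limma adjusted p = 0.0494 and 0.0481). It also did so under the median of ratios (limma adjusted p = 0.00825), but not without a filter (0.0927). EIF2S3 crossed it under the protein-coding total (limma adjusted p = 0.00368) and quantile normalization (0.00241). EIF2A, a separate initiation factor, fell by 0.35 on the log2 scale (limma adjusted p = 0.000725). Of the 5 subunits of the exchange factor eIF2B, 3 fell, 1 rose and 1 did not pass. EIF2B2 fell by 0.36, EIF2B3 by 0.33 and EIF2B1 by 0.24 on the log2 scale (limma adjusted p = 0.00119, 0.0247 and 0.0257), EIF2B4, in the chromosome 2 stretch, rose by 0.33 (limma adjusted p = 0.00353), and EIF2B5 was at -0.06 (limma adjusted p = 0.56). EIF2B1 and EIF2B3 each missed the threshold without control replicate 5 (limma adjusted p = 0.0882 and 0.0707), without knockdown replicate 4 (0.0673 and 0.0788), without knockdown replicate 6 (0.0765 and 0.0821) and with the replicate number as a block (0.0916 and 0.0544). EIF2B1 also missed it without control replicate 4 (0.0738) or knockdown replicate 5 (0.056). DNAJC3, an inhibitor of PERK and PKR, rose by 0.41 (limma adjusted p = 0.000312), and 64.0% of its neighbours rose. PPP1R15B, the constitutive counterpart of PPP1R15A, was at 56.2 ± 2.25 and 56.2 ± 3.42 RPM, with a log2 fold change of 0.00 to 2 decimals with a 95% confidence interval of -0.17 to 0.16 (limma adjusted p = 0.988).

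Among bZIP partners and relatives of ATF4, ATF3 and CHOP, 7 of 35 rose and 6 fell (median -0.03). The 37.1% called stood near the 41.8% of all genes tested. FOSB and JUNB, which form AP-1, rose by log2 fold changes of 0.92 and 0.59, to 79.7 ± 6.87 and 84.4 ± 4.79 RPM (limma adjusted p = 1.25e-08 and 2.06e-05). CREB3, an endoplasmic reticulum-bound factor, fell by 0.46 (limma adjusted p = 8.93e-05). MAF passed the test at a low level, 3.14 ± 0.153 RPM in control and 0.454 ± 0.399 RPM in knockdown samples (limma adjusted p = 5.3e-06). The C/EBP partners CEBPB and CEBPG did not pass, at -0.11 and -0.10 (limma adjusted p = 0.381 and 0.351), but did without control replicate 6, at -0.23 and -0.18 (limma adjusted p = 0.0177 and 0.0473). The number of bZIP genes that fell was 10 without control replicate 6, and 3 without control replicate 5 or without knockdown replicate 5, and 11 rose under the protein-coding total.

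Genes of amino acid supply, many of which ATF4 controls as it does ASNS, were counted in 3 lists. In each, more fell than rose, beside 19.2% that fell and 22.6% that rose of all genes tested. Calls in either direction came to 75% of synthetases, 50% of transporters and 50% of synthesis genes, beside 41.8% of all genes. For transporters, falls did not outnumber rises under some alternatives, as given below. Of the 20 cytosolic aminoacyl-tRNA synthetases, which load tRNAs with amino acids, 14 fell and 1 rose (median -0.31). AARS fell from 112 ± 10.8 to 75.9 ± 3.73 RPM, WARS from 108 ± 7.31 to 74.0 ± 5.72 RPM, LARS from 103 ± 8.91 to 76.5 ± 1.49 RPM and KARS from 119 ± 3.46 to 88.6 ± 5.73 RPM. Their log2 fold changes were -0.56, -0.54, -0.42 and -0.43, with limma adjusted p from 6.05e-06 to 0.000122. QARS, the 1 that rose, by 0.50 (limma adjusted p = 2.55e-05), lies in the chromosome 3 stretch. Of the 16 with a promoter in the set searched, 7 had the composite element, beside 4.46% of all genes in that set. The 7 include AARS, which fell, and MARS, which did not pass.

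Of 12 amino acid transporters, 4 fell and 2 rose (median -0.14), and all 12 were lowest in control replicate 6 among the control samples. SLC38A1, a glutamine transporter, went from 347 ± 31.8 to 267 ± 8.10 RPM, SLC7A1, a carrier of cationic amino acids, from 264 ± 26.0 to 215 ± 13.3 RPM, and SLC3A2, the shared heavy chain, from 331 ± 7.52 to 276 ± 8.36 RPM. They fell by 0.37, 0.29 and 0.26 on the log2 scale (limma adjusted p = 0.000406, 0.00481 and 0.00486). SLC1A4 (0.34, in the chromosome 2 stretch) and SLC36A4 (0.36) rose (limma adjusted p = 0.00303 and 0.00598). SLC7A11, the cystine carrier, was at 17.1 ± 3.27 and 17.0 ± 0.760 RPM (log2 fold change 0.01, limma adjusted p = 0.949). The number of transporters that fell was 7 without control replicate 6 and 2 without control replicate 5, where SLC7A1 missed the threshold (limma adjusted p = 0.0503). Without the variance trend it was also 2, and SLC7A1 again missed the threshold (limma adjusted p = 0.0637).

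Of 16 genes of amino acid and one-carbon synthesis, 6 fell and 2 rose (median -0.15). MTHFD1, a cytosolic folate enzyme, fell by 0.40 and CTH, which makes cysteine, by 0.76 on the log2 scale (limma adjusted p = 0.000162 and 0.00423). CTH was low throughout, at 3.04 ± 0.369 and 1.80 ± 0.230 RPM. CBS, the enzyme before CTH, rose by 0.60 (limma adjusted p = 7.43e-05), and 57.1% of its neighbours within 5 Mb rose. The number that fell was 3 without control replicate 4 or 5 or without knockdown replicate 4 or 5, and the number that rose was 1 without control replicate 6 or without any single knockdown replicate.

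Other targets of ATF4 and CHOP went in both directions, with 10 of 30 risen and 8 fallen (median -0.01). The share called was 60%, beside 41.8% of all genes tested. GDF15, a secreted stress cytokine, rose from 9.33 ± 2.52 to 14.8 ± 0.911 RPM (log2 fold change 0.70, limma adjusted p = 0.00042). BCL2L11 (BIM, a pro-death BCL2 protein induced by CHOP) rose by 0.71 and CARS2 by 0.65 (limma adjusted p = 1.74e-06 and 1.68e-06). BCL2L11 lies in the chromosome 2 stretch, and 87.9% of the neighbours of CARS2 rose. SQSTM1, an autophagy receptor, fell from 446 ± 21.5 to 299 ± 12.9 RPM, with a log2 fold change of -0.57 (limma adjusted p = 1.05e-06). FAM129A fell by 0.73 and GABARAPL1, another autophagy gene, by 0.46 (limma adjusted p = 4.4e-06 and 0.000114).

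**Figure D4:**
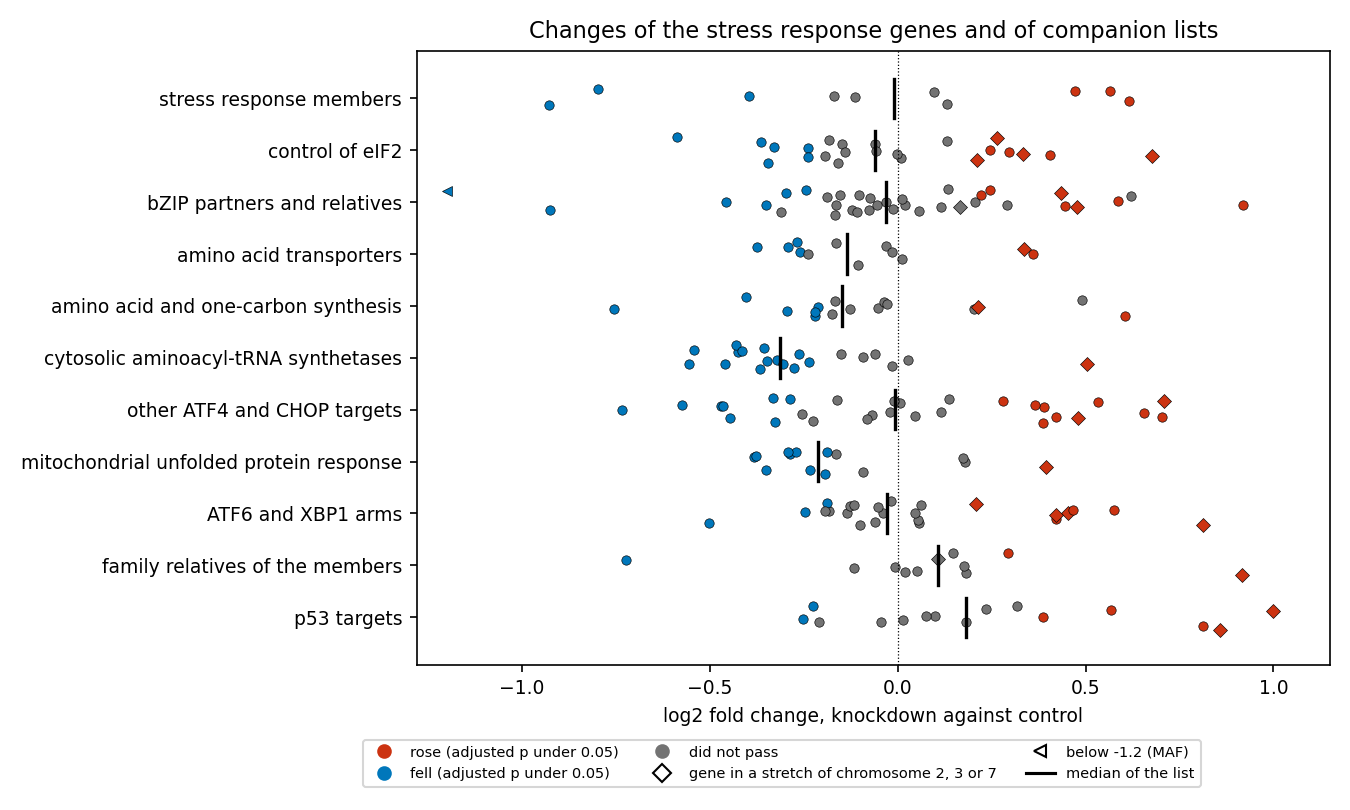
Log2 fold change of every tested gene of the members and of the 10 companion lists, coloured by limma call, with diamonds for genes in the raised stretches of chromosomes 2, 3 and 7, a bar at each list's median, and MAF drawn as a triangle at the left limit. The aminoacyl-tRNA synthetases lie mostly left of 0 (median -0.31), while the members spread to both sides (median -0.01).

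The neighbouring stress pathways were described in the same way. Of 14 genes of the mitochondrial unfolded protein response, which ATF5 is known to help run, 9 fell and 1 rose (median -0.21). Calls came to 71.4%, beside 41.8% of all genes tested, where 19.2% fell. The chaperone HSPD1 fell from 685 ± 19.7 to 526 ± 27.9 RPM and HSPA9 from 270 ± 12.8 to 212 ± 7.65 RPM, by 0.38 and 0.35 on the log2 scale (limma adjusted p = 0.000241 and 0.000419). TIMM17A, an import pore subunit, fell by 0.38 and TRAP1 by 0.27 (limma adjusted p = 0.00132 and 0.00433). HTRA2, a protease and the 1 that rose (0.39, limma adjusted p = 0.00143), lies in the chromosome 2 stretch. The number that rose was 2 under the median of ratios and quantile normalization and 3 under the protein-coding total.

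Of 24 genes of the ATF6 and XBP1 arms, which with PERK make up the unfolded protein response of the endoplasmic reticulum, 7 rose and 3 fell (median -0.03). The other 14 did not pass the test, and the 41.7% called stood near the 41.8% of all genes tested. The genes named here had the smallest adjusted p of the list and do not stand for its folding genes as a set. EDEM1, PDIA4 and PDIA6, which degrade or fold proteins there, rose by log2 fold changes of 0.81, 0.45 and 0.42 (limma adjusted p = 6.53e-08, 4.12e-05 and 6.65e-05), and all 3 lie in the raised stretches, as do 4 of the 7 risen genes. DNAJB9, outside them, rose from 7.25 ± 0.620 to 10.8 ± 1.07 RPM (0.58, limma adjusted p = 0.000532). SEC24D, a coat protein gene, fell by 0.50 (limma adjusted p = 0.00073). The number that fell was 6 under the median of ratios, and 1 without control replicate 4 or 5, or without knockdown replicate 4 or 5.

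Of the 11 tested relatives of the members, 2 rose and 1 fell (median 0.11), so 27.3% were called, beside 41.8% of all genes tested. TRIB2 rose from 27.1 ± 4.30 to 50.8 ± 2.94 RPM, with a log2 fold change of 0.92 (limma adjusted p = 8.3e-08), and lies in the chromosome 2 stretch. TRIB1 was at 117 ± 12.2 and 116 ± 6.94 RPM (log2 fold change -0.01, limma adjusted p = 0.954). LRP8, the receptor closest to VLDLR, rose by 0.29 (limma adjusted p = 0.00921), and missed the threshold without knockdown replicate 6 (limma adjusted p = 0.0566) and without the variance trend (0.0775). Whether these relatives differ from TRIB3 and VLDLR in their change was not tested.

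SESN2, ATF3, TRIB3 and PPP1R15A can also be induced by p53 or other damage signals, so p53 targets were listed. SW480 carries mutant p53. Of 15 such genes 5 rose and 2 fell (median 0.18). The 46.7% called stood near the 41.8% of all genes tested. TP53I3 rose by a log2 fold change of 1.0, XPC by 0.86, BTG2 by 0.81, FDXR by 0.57 and CDKN1A (p21) by 0.39 (limma adjusted p from 1.26e-07 to 0.000694). TP53I3 and XPC lie in the raised stretches, and 38.9% of the neighbours of FDXR rose. The number of p53 targets that fell was 0 without control replicate 4 or 5 or without knockdown replicate 5 or 6, and 1 without knockdown replicate 4.

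The members were read against their own neighbours as well. In the deposited table DDIT3 lies at chr12:57910371-57914301, TRIB3 at chr20:361261-378204, VLDLR at chr9:2621834-2660054 and PPP1R15A at chr19:49375649-49379315, in coordinates of a build that the table does not name. Of 59 tested genes within 5 Mb of TRIB3, 4 rose and 16 fell (median -0.14), and of 29 near VLDLR, 3 rose and 3 fell (median -0.04). Both members fell much further than these medians. Around DDIT3, 38 of 139 rose and 30 fell (median 0.04), and around ATF3, 4 of 42 rose and 6 fell (median -0.02). Around PPP1R15A, 57 of 228 rose and 30 fell, and around ATF5 on the same chromosome, 54 of 203 rose and 27 fell (both medians 0.09). ATF5 fell where its neighbours leaned upward. ASNS had the most raised neighbourhood, with 34 of 115 risen and 5 fallen (median 0.12), close to its own 0.10. The neighbours of ATF4, CHAC1 and SESN2 had medians of -0.04, -0.07 and 0.04.

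**Figure D5:**
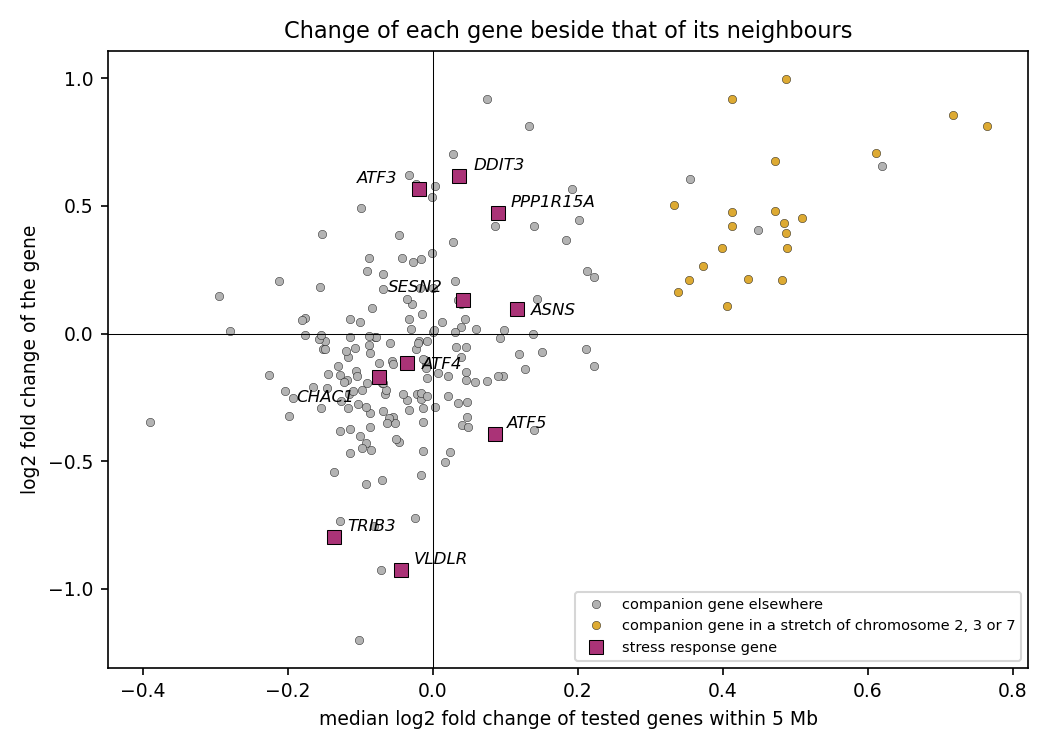
Log2 fold change of each gene (vertical) against the median log2 fold change of the tested genes within 5 Mb of it (horizontal) for the 10 members (squares) and the companion genes (circles, in yellow inside the raised stretches of chromosomes 2, 3 and 7; MAF is drawn at the lower limit). The members all lie between neighbour medians of -0.14 and 0.12, left of the yellow group.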

How the data were processed

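Total RNA of 6 SW480 samples was sequenced as strand-specific libraries, per the labels' protocols. The deposited table holds log2 values, read from the values as the log2 of RPM (reads scaled to depth) plus an offset of 0.0001, since the labels do not state the scale. The submitters' processing notes name Partek and Bowtie, without versions, and hg38. The positions are not those of GRCh38 (largest end on chromosome 1: 249214146), and which gene models and counting method were used is not given in the sources used here. Depth was recovered from the step between low values, of which 78.9% to 80.5% were whole within 0.02 reads, so count models were not run. A symbol at several loci (1192 of 22258 symbols, 24549 lines) was used once.

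Genes whose mean reached 0.688 RPM were tested with limma (R 4.3.3, limma 3.58.1, statmod 1.5.0), lmFit and eBayes with a trend, two-sided, 3 against 3, no covariates, adjusted over all 15496 genes at 0.05. Tested on simulated data for this comparison (15496 genes), the fit recovered 40% of 100 genes changed by 0.5 and 81% of 100 changed by 1 on the log2 scale, with 6 false calls. Far fewer genes were changed in the simulation than the 41.8% called in the data, so these rates do not carry over to the data. SD is over samples and SE is limma's. Nothing in the labels says that the replicate numbers pair the samples, and the main fit treated them as unpaired. The same-numbered deviations correlated at -0.05, -0.06 and -0.13, which shows no shared deviation but cannot exclude a pairing.

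The members and lists were chosen with earlier results of these data known. The rule allows every tested gene of the eIF2 and relatives lists and, from other lists, up to 5 with the smallest and 2 with the largest adjusted p. Not all were named, and some results are not reported here. CEBPB, CEBPG, GDF15, MARS, the markers CDH1, VIL1, EPCAM and CDX2 and the overlapping genes NUP62, IL4I1 and RP11-125B21.2 were named after their values were seen, and the chromosome stretches were found on these data. Older symbols matched 18 of 20 synthetases. Alternatives changed the offset, filter, scaling, variance prior and samples, and added the replicate number as a block. Sequences are RefSeq's (GRCh38.p14). Figures used matplotlib 3.10.9.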

Additional observations from a re-analysis of the deposited data

How the results depend on the processing

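DDIT3, ATF3 and PPP1R15A rose and VLDLR, TRIB3 and ATF5 fell under all 16 alternatives tried. The number of members changed was 6 to 7, of all genes changed 4929 to 7739, and of companion genes changed 72 to 127 (102 as reported). ATF4 passed only under the median of ratios, at -0.14 (limma adjusted p = 0.0253, range over alternatives 0.0253 to 0.518). CHAC1 passed only under quantile normalization, at -0.36 (limma adjusted p = 0.0407, range 0.0407 to 0.869). ASNS ran from -0.0905 to 0.1961 when a sample was left out, with the negative value only without control replicate 6. With the replicate number as a block, 5481 genes and 6 members changed, and no member's call changed, while EIF2AK1, EIF2B1 and EIF2B3 missed the threshold.

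Of 60 companion genes named, 45 kept direction and call throughout. PPP1R15B, TRIB1 and SLC7A11, all near 0, changed sign. PPP1R15B was at 0.0516 under the protein-coding total and 0.0506 under quantile normalization, and ran from -0.0339 to 0.0494 when a sample was left out. TRIB1 was at 0.0465 and 0.0828 under the same settings and ran from -0.091 to 0.0588. SLC7A11 was at -0.0121 under the median of ratios and -0.0389 under quantile normalization, and ran from -0.1534 to 0.1234. Counts that moved by over 1.5 times stand beside their lists in the text, and synthesis (3 fell, 1 rose) and the ATF6 and XBP1 arms (1 fell) also moved without a filter, without the variance trend and with the block, as did p53 targets (1 and 0 fell) under the last pair. The cause of these changes was not tested. CHAC1 rested on as few as 101 reads in a sample, which limits its precision.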
